A study of Mus musculus with 4 samples.

Results

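The genes of the mitochondrial respiratory chain and ATP synthase were followed in single-cell RNA-seq (scRNA-seq) libraries of mouse testicular organoids (TOs) and testes. Members were chosen by symbol alone, as every gene starting with mt-Nd, mt-Co, mt-Atp, mt-Cyt, Nduf, Uqcr, Atp5 or Cox4 to Cox8, and 1 pseudogene-type symbol (Ndufb1-ps) was left out. This gave 102 of the 32285 genes in the matrices, of which 13 are encoded by mitochondrial DNA (mt) and 89 by nuclear DNA. Grouped by symbol, the nuclear members comprise 38 genes of the complex I group (Ndufa4 and Ndufa4l2 among them, although Ndufa4 is now counted as a subunit of complex IV), 8 complex I assembly factors, 8 genes of complex III, 18 of complex IV and 17 of ATP synthase (complex V), and 3 of them are X-linked. The mt members comprise 7 genes of complex I, 1 of complex III, 3 of complex IV and 2 of complex V.

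There were 2 TO libraries and 2 testis libraries, made with the 10x Genomics 3′ v3.1 chemistry. TOs had been grown from testis cells of neonatal ICR mice, which were reaggregated in microwells, embedded in basement membrane extract and cultured with follicle-stimulating hormone, testosterone and antioxidants. The testes were dissociated without culture. The design text gives 28 days for both the TOs and the testes, whereas the dissociation protocol names TOs of day 21, and the labels do not say which TO library came from which of the independent TO batches. Because nothing in the labels ties the libraries of a group to separate animals or cultures, the p-values below measure the spread between these libraries, and with 2 against 2 an exact permutation test of a single value cannot go below p = 0.33.

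Respiratory complexes I, III and IV pass electrons to oxygen and pump protons across the inner mitochondrial membrane, and complex V uses the proton gradient to make ATP. Most subunits are encoded in the nucleus, while a small core of complexes I, III, IV and V is encoded by mitochondrial DNA and transcribed inside the organelle. In the testis, developing germ cells replace several subunits by germ cell isoforms encoded by separate genes, and spermatocytes silence most genes of the X chromosome during the pachytene stage of meiosis. The germ isoforms considered here are Cox6b2, Cox7b2 and Cox8c, whose somatic counterparts in complex IV are Cox6b1, the X-linked Cox7b, and Cox8a.

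The start regions of these isoform pairs are shown because the exchange of one isoform for the other is followed through the germ cell stages below. The windows run from 250 bases before to 50 bases after the start of each gene (RefSeq, GRCm38.p6), 5′ to 3′ on the strand of the gene, and capitals mark the ETS core motif CCGGAAG and the motif CCAAT on either strand.
Cox6b1: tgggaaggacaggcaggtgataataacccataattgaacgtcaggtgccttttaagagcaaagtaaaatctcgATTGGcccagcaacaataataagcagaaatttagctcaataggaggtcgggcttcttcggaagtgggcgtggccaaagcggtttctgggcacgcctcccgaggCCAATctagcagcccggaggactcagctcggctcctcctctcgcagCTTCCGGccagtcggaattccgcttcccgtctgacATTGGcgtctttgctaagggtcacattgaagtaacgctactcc
Cox6b2: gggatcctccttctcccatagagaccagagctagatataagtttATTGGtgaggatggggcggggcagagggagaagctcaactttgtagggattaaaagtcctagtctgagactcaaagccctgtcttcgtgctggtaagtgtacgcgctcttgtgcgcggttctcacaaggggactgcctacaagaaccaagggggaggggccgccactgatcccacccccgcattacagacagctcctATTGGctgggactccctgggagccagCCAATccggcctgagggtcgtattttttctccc
Cox7b: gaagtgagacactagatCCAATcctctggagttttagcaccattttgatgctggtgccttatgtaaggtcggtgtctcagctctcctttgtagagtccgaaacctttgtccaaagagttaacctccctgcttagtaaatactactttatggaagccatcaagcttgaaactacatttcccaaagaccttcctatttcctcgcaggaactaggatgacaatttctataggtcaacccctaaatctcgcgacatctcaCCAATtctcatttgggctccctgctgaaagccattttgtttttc
Cox7b2: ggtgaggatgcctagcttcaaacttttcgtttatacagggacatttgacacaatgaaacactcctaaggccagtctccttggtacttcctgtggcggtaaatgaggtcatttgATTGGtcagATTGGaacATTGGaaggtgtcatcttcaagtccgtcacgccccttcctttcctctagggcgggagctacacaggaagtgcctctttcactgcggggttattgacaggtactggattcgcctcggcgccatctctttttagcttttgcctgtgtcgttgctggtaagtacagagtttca
Cox8a: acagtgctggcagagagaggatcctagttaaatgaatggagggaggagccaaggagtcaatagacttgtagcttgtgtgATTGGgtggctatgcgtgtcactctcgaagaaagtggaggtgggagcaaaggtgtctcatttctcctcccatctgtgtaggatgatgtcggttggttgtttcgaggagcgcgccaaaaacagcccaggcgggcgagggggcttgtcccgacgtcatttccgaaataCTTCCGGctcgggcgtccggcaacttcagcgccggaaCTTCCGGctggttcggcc
The windows lie at chr7:30626065-30626364 (minus strand) for Cox6b1, chr7:4753045-4753344 (minus strand) for Cox6b2, chrX:106015450-106015749 (plus strand) for Cox7b, chr5:71548156-71548455 (minus strand) for Cox7b2, chr19:7217567-7217866 (minus strand) for Cox8a. For Cox8c there was no window. Cox6b1 held 1 CCGGAAG and Cox8a held 2, whereas Cox6b2, Cox7b and Cox7b2 held 0. CCAAT occurred 3 times at Cox6b1, Cox6b2 and Cox7b2, 2 times at Cox7b and 1 time at Cox8a. Of the 89 nuclear members 72 had a window. The ETS core was present in 17 of them (23.6%, against 9.93% of 27025 genes), the NRF1 motif CGCATGCG in 11 (15.3% against 2.07%), the YY1 motif AAGATGGC in 10 (13.9% against 3.19%), the CRE motif TGACGTCA in 4 (5.56% against 2.03%) and CCAAT in 32 (44.4% against 41.1%). Each motif was searched on both strands, none of these motifs contains another, and a match is a description of letters, not of binding.

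The libraries held 106577822 and 119966959 unique molecular identifiers (UMIs) in the TOs and 77016449 and 74988295 in the testes, and 8713 to 9867 cells per library were kept. Cells were clustered without the members and named from marker genes, and UMIs were summed over the cells of each type in each library. A level is given as CPM, that is the UMIs of a gene scaled to the total UMIs of that type and library. A UMI is 1 molecule counted at its 3′ end, so no division by transcript length was made, and a lower CPM of one transcript cannot be told apart from a higher amount of the rest. Between 30 and 55 cell barcodes were shared by any pair of libraries. Cells given no name made up 4.04% and 2.52% of the TO cells and 37.5% and 32.0% of the testis cells.

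In 8 types every library had at least 20 cells, namely Sertoli, Leydig, macrophage, endothelial, myoid and stromal cells, spermatogonia and leptotene/zygotene spermatocytes. Later germ cells were few in TOs, with 1 pachytene cell in each library, 15 and 19 diplotene or dividing cells, 10 and 13 round spermatids and 0 elongating spermatids. The endothelial name was not borne out in TOs, where Pecam1 and Cldn5 were at 0 in both libraries while the testis cells had 291 and 272 CPM of Pecam1, so that these TO cells are called the TO cells of the endothelial cluster. TO Leydig cells had 1173 and 82.4 CPM of Cyp17a1, a steroidogenic enzyme, against 3836 and 11058 in testis. The other Leydig markers were mixed. Hsd3b1 was higher in TOs, at 2902 and 1923 against 1480 and 996 CPM. Insl3 overlapped, at 2277 and 150 against 3341 and 1734 CPM. Cyp11a1 (2718 and 1327 against 3128 and 2815 CPM), Star and Hsd17b3 were lower. The leptotene/zygotene cluster of the testes also contained cells with the pachytene marker Piwil1, at 402 and 227 CPM against 6.09 and 6.38 in TOs. A finer clustering lowered this to 21.5 and 53.2 CPM against 2.15 and 2.16, and values at the finer clustering are given beside the results for this type where they were computed.

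A further difference concerned spermatid transcripts outside spermatids. A list of 12 such genes summed to 3120 to 8686 CPM in the somatic types of the testes and to 20.02 to 101.2 CPM in those of TOs, and in spermatogonia and leptotene/zygotene cells to 3983 to 6077 CPM against 55.7 to 93.1. A list of 9 dissociation stress genes summed to 1118 to 9485 CPM in TO somatic types and 331 to 2557 CPM in testis somatic types. The part of either in the results below was not tested, except where values after subtraction of the testis background are given.

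First, the mt members were summed. TO cells had a larger share of mt UMIs than testis cells in 5 of 8 types, with no overlap between the libraries, a smaller share in 1 type and an overlapping share in 2. In percentage points the difference was greatest in leptotene/zygotene cells, where the TO libraries held 5.57% and 6.42% and the testis libraries 2.68% and 2.75%, a ratio of 2.21 between means of 5.99% ± 0.599 and 2.72% ± 0.0433 (SD, n = 2). At the finer clustering the shares were 5.65% and 6.52% against 3.35% and 2.92%. In spermatogonia it was 5.14% and 5.76% against 3.57% and 4.08%. Both meiotic and premeiotic germ cells of TOs thus lay above both testis libraries.

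Among somatic types, stromal cells had 2.75% and 2.87% mt UMIs in TOs against 1.98% and 1.73% in testes, and macrophages had 3.08% and 4.46% against 2.44% and 2.77%. In the endothelial cluster the shares were 4.39% and 5.02% against 1.91% and 2.35%, also a ratio of 2.21 between the means, beside the missing endothelial markers. Myoid cells overlapped, at 2.53% and 2.83% against 2.41% and 2.85%, and so did Leydig cells, at 5.42% and 5.65% against 5.14% and 6.71%. Sertoli cells went the other way, at 6.23% and 7.34% against 7.92% and 7.41%, and this direction was lost when the 10% limit on mt UMIs per cell was lifted (log2 ratio 0.03 instead of −0.18). That limit removed 11.3% and 7.88% of TO barcodes and 3.09% and 3.56% of testis barcodes.

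**Figure D1:**
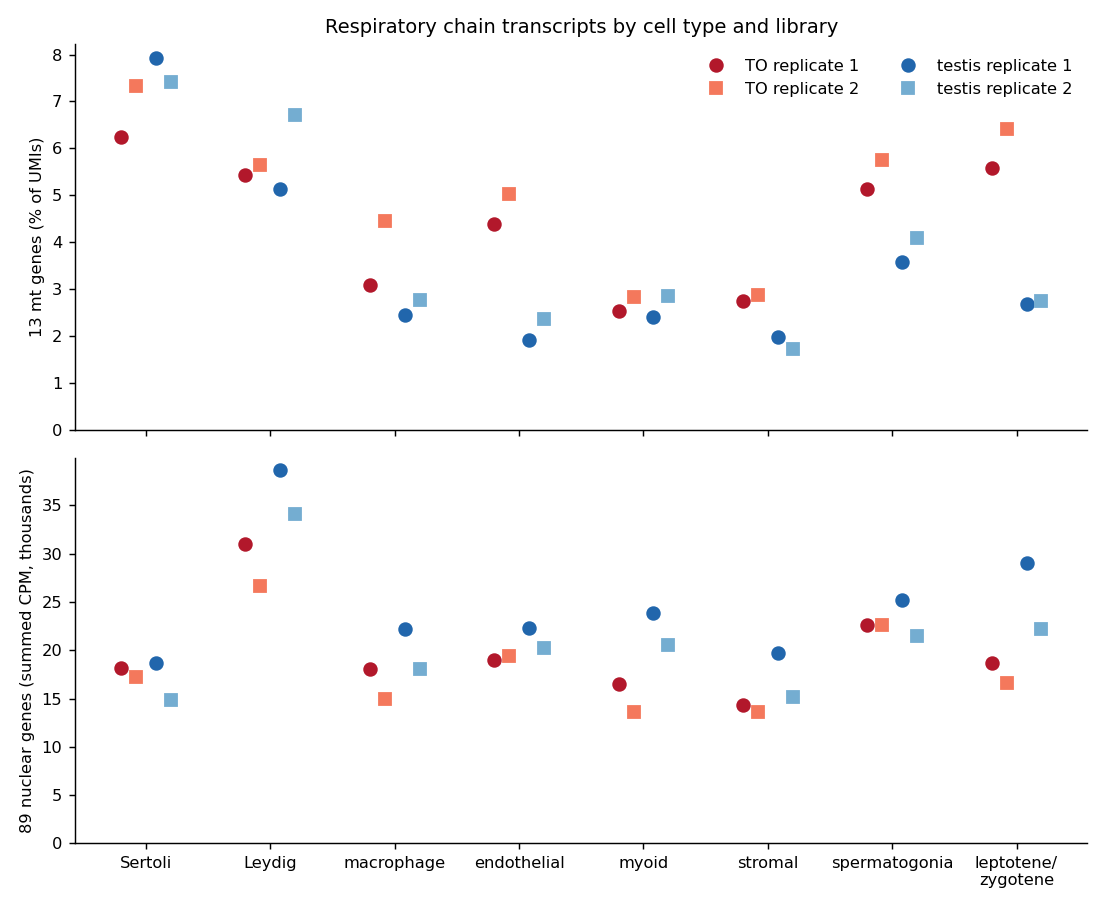
Summed levels of the mt members (percent of all UMIs) and of the nuclear members (CPM) in 8 cell types. Filled symbols are coloured by library, with circles for replicate 1 and squares for replicate 2. TO leptotene/zygotene cells lie at 5.57% and 6.42% mt UMIs, above the testis libraries at 2.68% and 2.75%, while their nuclear sums of 18633 and 16592 CPM lie below 29026 and 22186 CPM.

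Next, single mt members were tested with edgeR's quasi-likelihood test on the summed UMIs, with Benjamini-Hochberg adjustment over all genes tested, and a gene was called at an adjusted p below 0.01 and a fold above 2. Across the 8 types there were 6 calls of mt members, all higher in TOs. Of these, 4 were mt-Nd2, which encodes a membrane subunit of complex I. mt-Nd2 stood at 883 and 1115 CPM in TO stromal cells and at 315 and 294 CPM in testis stromal cells (log2 fold 1.73 ± 0.29 SE, adjusted p = 0.0029). In leptotene/zygotene cells it stood at 1539 and 2128 against 619 and 710 CPM (1.38 ± 0.30, adjusted p = 0.0040), and in spermatogonia at 1414 and 1770 against 672 and 748 CPM (1.11 ± 0.23, adjusted p = 0.0057). The TO libraries were above both testis libraries in each of these types. These calls were lost without TO replicate 2 in leptotene/zygotene cells (1.07, adjusted p = 0.097) and spermatogonia (0.92, adjusted p = 0.047), and without testis replicate 1 or 2 in stromal cells (1.89 and 1.67, adjusted p = 0.018 and 0.030). With an estimated background subtracted from all libraries, which took 86.9% and 100% of the UMIs of TO spermatogonia and 100% of those of TO leptotene/zygotene cells, the fold of mt-Nd2 turned to −1.51 in spermatogonia (adjusted p = 0.18) and −0.49 in leptotene/zygotene cells (adjusted p = 0.64). With the testis background alone subtracted it was 1.05 (adjusted p = 0.089) and 1.29 (adjusted p = 0.015).

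mt-Nd5, another membrane subunit of complex I, was called in leptotene/zygotene cells, at 726 and 585 against 254 and 300 CPM (1.14 ± 0.25, adjusted p = 0.0041), and missed the threshold there at the finer clustering (1.03, adjusted p = 0.011). It was also called in the endothelial cluster, at 529 and 449 against 170 and 235 CPM, together with mt-Nd2 at 1197 and 1485 against 409 and 537 CPM. Leaving out testis replicate 1 raised the adjusted p in that cluster to 0.062 for mt-Nd5 and 0.046 for mt-Nd2, and leaving out TO replicate 1 or 2 raised that of mt-Nd5 in leptotene/zygotene cells to 0.069 or 0.022. The calls of mt members read against 8.88% of all genes higher in TO in the endothelial cluster, 2.10% in stromal cells, 0.265% in spermatogonia and 4.79% in leptotene/zygotene cells. In leptotene/zygotene cells all 13 mt members had log2 folds above 0, between 0.73 and 1.38, and 13 had an unadjusted p under 0.05. In the other 4 types 0 mt members were called by edgeR, with an unadjusted p under 0.05 for 2 members in Sertoli, 1 in Leydig, 8 in macrophage and 1 in myoid cells, and DESeq2 called 0, 0, 1 and 0.

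The composition of the mt pool also differed. mt-Nd2 made up a larger share of mt UMIs in TOs in 8 of 8 types, with ratios of 1.24 to 2.16, for example 3.21% and 3.89% against 1.59% and 1.70% in stromal cells. mt-Co3, a core subunit of complex IV, made up a smaller share in 7 of 8 types, for example 16.8% and 17.0% against 23.9% and 21.8% in Sertoli cells. mt-Co1, the catalytic subunit of complex IV, was lower in 4 types and overlapped in 4. mt-Nd4 and mt-Cytb, the mt subunit of complex III, were higher in 3 types each, mt-Nd1 in 2 and mt-Nd6 in 1, while mt-Co2 was lower in 1. mt-Atp6, mt-Atp8, mt-Nd3, mt-Nd4l and mt-Nd5 overlapped in all 8 types. These shares are a description, and mt-Nd2 and mt-Co3 were singled out after their values were seen.

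The nuclear members took the other direction where the sums differed. They summed to lower CPM in TOs in 5 of 8 types without overlap, and overlapped in 3. One of the 5, stromal cells, overlapped and turned in direction with the testis background subtracted (log2 ratio 0.12 instead of −0.32). Cells named myoid had 16487 and 13559 CPM in TOs against 23897 and 20560 CPM in testes (ratio of means 0.676). Their markers are those of the contractile cells around the tubules. In testes 212 of 684 and 144 of 428 of them fell into a cluster with the pericyte gene Rgs5. In TOs 34 of 2252 and 41 of 1534 did, and the part of this makeup in the sum was not tested. Leydig cells had the highest sums of the somatic types, at 30950 and 26703 against 38683 and 34137 CPM (0.792). The cells named Leydig came from clusters of unlike score on the Leydig markers. The cluster of highest score (0.95) held 693 of 1681 and 563 of 1543 of them in TOs. In testes it held 373 of 563 and 230 of 341. The part of this makeup in the Leydig sum and in the Leydig folds below was not tested. Leptotene/zygotene cells had 18633 and 16592 against 29026 and 22186 CPM (0.688), with a log2 ratio of −0.54 that was −0.25 with the finer clustering.

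Stromal cells had 14319 and 13617 against 19720 and 15145 CPM, and the endothelial cluster 19012 and 19355 against 22271 and 20191 CPM. Without the germ isoforms the stromal libraries overlapped, leaving 4 of 8 types lower. Sertoli cells (18181 and 17188 against 18689 and 14875 CPM), macrophages (18076 and 15003 against 22173 and 18019 CPM) and spermatogonia (22599 and 22627 against 25213 and 21526 CPM) overlapped. Counted per UMI of non-mt genes, the nuclear sum was lower in the same number of types, 5 of 8. The ratio of mt to nuclear UMIs was higher in TOs in 6 of 8 types, and in leptotene/zygotene cells its mean was 3.43 ± 0.621 against 1.08 ± 0.221 (SD, n = 2). At the finer clustering these cells had 5.65% and 6.52% mt UMIs in TOs against 3.35% and 2.92% in testes. Their nuclear sums were then 17643 and 15718 against 20626 and 18953 CPM.

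Member by member, the lower sums of myoid, Leydig and leptotene/zygotene cells were spread over the complexes. In myoid cells 74 of 87 tested nuclear members had a log2 fold below 0, with a median of −0.51 against 0.06 for all genes, and the medians were −0.41 for complex I, −0.72 for complex III, −0.72 for complex IV and −0.48 for complex V. In Leydig cells 75 of 84 lay below 0 with a median of −0.52, against 0.02 for all genes, including 36 of 37 complex I genes and 8 of 8 complex III genes. In leptotene/zygotene cells 65 of 83 lay below 0 with a median of −0.49, against −0.01, at the main clustering. At the finer clustering the nuclear sums of this type lay closer, at 17643 and 15718 CPM in TOs against 20626 and 18953 CPM in testes. Complex I assembly factors did not share the shift seen at the main clustering, with medians of 0.03 in myoid, 0.06 in Leydig and −0.08 in leptotene/zygotene cells. The median over nuclear members was 0.16 in Sertoli cells, −0.16 in macrophages, −0.24 in the endothelial cluster, −0.14 in stromal cells and −0.06 in spermatogonia.

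**Figure D2:**
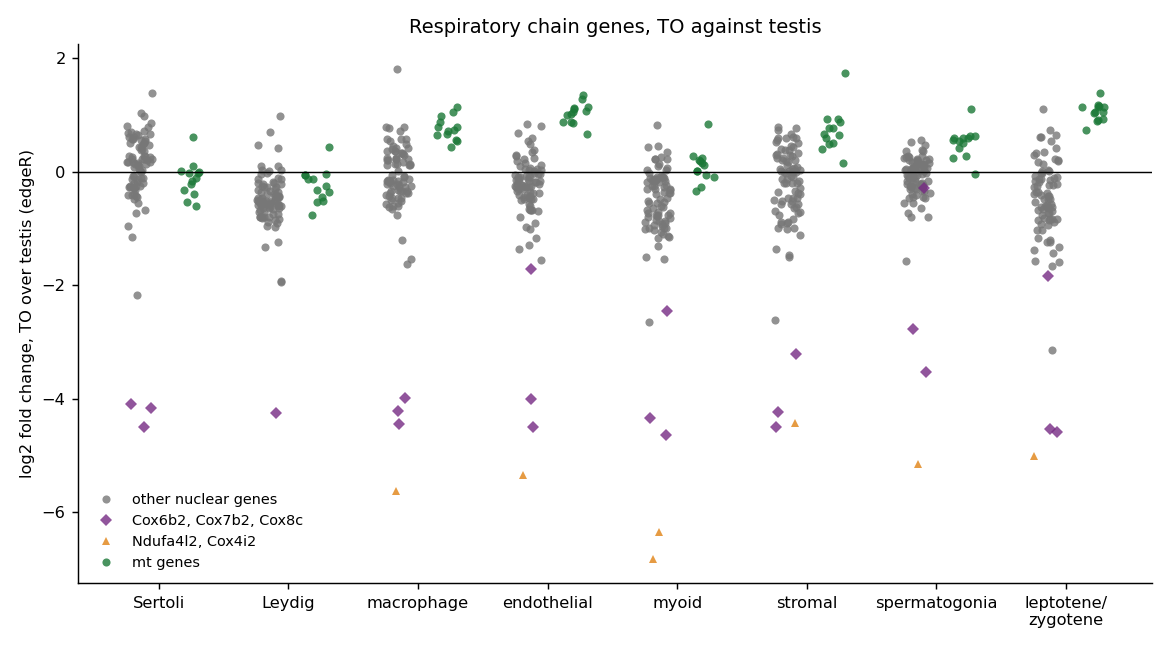
Log2 fold of each tested member, TO over testis, in 8 cell types, with mt and nuclear members drawn apart. The germ isoforms, and Ndufa4l2 with Cox4i2, have symbols of their own, and calls are not marked. The nuclear members of myoid, Leydig and leptotene/zygotene cells centre near −0.5, and the germ isoforms form the points near −4 in most types. The folds drawn are those of the main clustering, and the nuclear sums of leptotene/zygotene cells lay closer at the finer one.

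Of the nuclear members 24 were called in at least 1 type, giving 55 calls, of which 53 were lower and 2 higher in TOs. Lower calls were also the more frequent over all genes. By type, 1.01% (Leydig) to 18.5% (myoid) of all genes were called lower. Those called higher were 0.265% (spermatogonia) to 8.88% (endothelial cluster). The germ isoforms gave 20 of the lower calls, Ndufaf3 and Ndufa4l2 gave 6 each, and other members gave 21. In Leydig cells 0 of 84 members were called by edgeR (0.394% of all genes were called higher and 1.01% lower), although 21 had an unadjusted p under 0.05, and DESeq2 called 3, all lower. Of all 61 calls, mt members included, 28 were kept without each library in turn and 33 were lost without at least 1 library.

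In Sertoli cells, the supporting cells of the tubule, 5 members were called lower and 1 higher (11.9% and 5.87% of all genes). The member called higher was Ndufc2, an accessory complex I subunit, at 292 and 365 CPM in TOs against 107 and 163 CPM in testes (1.39 ± 0.24, adjusted p = 0.0044). Cox7a1, the isoform of heart and skeletal muscle, was lower at 15.1 and 9.65 against 79.2 and 34.4 CPM (−2.18 ± 0.39, adjusted p = 0.0049). Both testis libraries lay above both TO libraries. After subtraction of the testis background, Ndufc2 had an adjusted p of 0.012 and Cox7a1 of 0.011, and 0 members were called in Sertoli cells. Leaving out TO replicate 2 (3 members still called) gave an adjusted p of 0.024 for Ndufc2 and 0.011 for Cox7a1, and leaving out testis replicate 1 gave 0.022 for Cox7a1.

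In myoid cells 14 of 87 members were called lower and 0 higher (18.5% and 4.22% of all genes). The most changed were Ndufa4l2, a paralogue of the complex IV subunit Ndufa4, and Cox4i2, an alternative isoform of Cox4i1 known from lung and from oxygen-sensing cells. Ndufa4l2 stood at 1.19 and 2.20 CPM in TOs and 160 and 218 CPM in testes (−6.82 ± 0.35, adjusted p = 2.3e-06), and Cox4i2 at 1.19 and 0.479 against 55.2 and 81.6 CPM (−6.35 ± 0.41, adjusted p = 3.7e-06). The libraries of the groups did not approach each other for either gene. Cox4i2 contributed 6.38% and 8.82% of Cox4 UMIs in testis myoid cells and 0.19% and 0.09% in TO myoid cells. After subtraction of the testis background the folds were −7.08 (adjusted p = 0.033) and −6.92 (adjusted p = 0.035), larger in size but past the limit of 0.01. Without the upper limits on genes and UMIs per cell Cox4i2 was not called and Ndufa4l2 was not tested.

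Within the testis myoid cells these transcripts were concentrated in 1 cluster that also expressed Rgs5, a pericyte gene. Of its 212 and 144 cells, 52.4% and 60.4% had a UMI of Ndufa4l2 and 31.6% and 41.0% a UMI of Cox4i2, whereas in the other testis myoid cluster of 472 and 284 cells Ndufa4l2 was seen in 14.6% and 9.15%. Only 34 and 41 TO cells fell into the Rgs5 cluster, with Ndufa4l2 in 0% and 14.6% of them. In TOs the share of myoid cells with Rgs5 was 0.0444% and 0.391%. How far these lower levels, the nuclear sum and the other folds of myoid cells reflect this makeup was not tested.

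The other myoid calls were smaller and included subunits of each proton-pumping complex. Cox5a, a complex IV subunit, stood at 362 and 281 against 662 and 735 CPM (−1.16 ± 0.25, adjusted p = 0.0047). Ndufs6, an accessory complex I subunit, stood at 123 and 95.8 against 253 and 211 CPM (−1.13 ± 0.23, adjusted p = 0.0040), and Uqcrq, a complex III subunit, at 190 and 121 against 459 and 277 CPM (−1.31 ± 0.32, adjusted p = 0.0099). Both testis libraries were above both TO libraries for each. Without testis replicate 1 the adjusted p was 0.014 for Cox5a, 0.023 for Ndufs6 and 0.070 for Uqcrq, and without TO replicate 2 it was 0.022, 0.025 and 0.020. Ndufc1, Cox7a2, Ndufa9, Ndufb7 and Ndufaf8 were also lower, by 1.01 to 1.54 on the log2 scale, and each of these calls was also lost without testis replicate 1. Leaving out TO replicate 2 or testis replicate 1 gave 8 or 6 calls in this type. Without the upper limits on genes and UMIs per cell 1 member was called in this type, the germ isoform Cox6b2 (−4.31, adjusted p = 0.0077).

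Macrophages, the endothelial cluster and stromal cells had 6, 6 and 5 nuclear members called lower and 0 higher (12.9%, 12.1% and 16.4% of all genes lower, and 2.60% higher in macrophages). Apart from germ isoforms, Ndufaf3 and Ndufa4l2, these were Ndufaf2, a complex I assembly factor, in macrophages (16.6 and 18.4 against 63.3 and 52.9 CPM, −1.55 ± 0.31, adjusted p = 0.0037) and in the endothelial cluster (19.9 and 29.4 against 64.8 and 70.6 CPM), and the complex III core protein Uqcrc1 in the endothelial cluster (65.0 and 69.5 against 170 and 130 CPM, −1.30 ± 0.26, adjusted p = 0.0036). Without testis replicate 1 the adjusted p was 0.025 for Ndufaf2 in macrophages, 0.020 for Ndufaf2 in the endothelial cluster and 0.030 for Uqcrc1, and 3 and 2 members were called in these types. With the testis background subtracted, Ndufaf2 in macrophages had a log2 fold of −0.36 (adjusted p = 0.92) and Uqcrc1 one of −1.18 (adjusted p = 0.013).

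The germ isoforms were also called lower in somatic types of TOs. Cox8c stood at 33.1 and 14.8 CPM in TO Sertoli cells against 621 and 524 CPM in testis Sertoli cells (−4.50 ± 0.36, adjusted p = 0.00019), and at 65.1 and 21.9 against 1170 and 919 CPM in myoid cells. In Sertoli cells Cox6b2 and Cox7b2 were lower too, at 13.8 and 8.65 against 269 and 151 CPM and at 7.83 and 3.55 against 122 and 88.97 CPM. The log2 fold of Cox8c lay between −4.64 and −4.44 in Sertoli, macrophage, endothelial, myoid and stromal cells, which are unlike in origin. That of Cox7b2 lay between −4.33 and −3.98 in these types, whereas that of Cox6b2 varied, at −4.16 in Sertoli cells, −4.22 in macrophages, −3.21 in stromal cells, −2.46 in myoid cells and −1.71 in the endothelial cluster. In TO myoid cells Cox6b2 stood at 111 and 70.3 CPM and made up 32.9% and 26.0% of Cox6b UMIs, against 73.5% and 58.9% in testis myoid cells. The spermatid list differed between the same groups, as given above, and after subtraction of the testis background 0 germ isoforms were called in any somatic type. These calls are given as values of the libraries only.

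Ndufaf3, a complex I assembly factor, was lower in 6 of 8 types, including myoid cells (19.4 and 11.3 against 105 and 81.6 CPM, −2.66 ± 0.30, adjusted p = 8.1e-05) and stromal cells (20.2 and 12.2 against 99.3 and 98.6 CPM, −2.62 ± 0.28, adjusted p = 0.00028). In testes it was far more abundant in pachytene cells, at 498 and 470 CPM, than in any of these types. Its calls in Sertoli cells and macrophages were lost without TO replicate 2 (adjusted p = 0.025 and 0.036) or testis replicate 1 (0.010 and 0.011), that in Sertoli cells also without TO replicate 1 (0.028), and those in myoid and stromal cells were kept without each library in turn. With the testis background subtracted, the fold was −1.81 in myoid cells (adjusted p = 0.22) and −1.63 in stromal cells (adjusted p = 0.47).

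In spermatogonia, the premeiotic germ cells, 4 nuclear members were called lower and 0 higher (8.84% and 0.265% of all genes). Cox8c stood at 66.9 and 42.6 against 637 and 568 CPM (−3.52 ± 0.24, adjusted p = 1.6e-06) and Cox6b2 at 40.4 and 36.0 against 321 and 174 CPM (−2.78 ± 0.27, adjusted p = 1.9e-05). Cox7b2 was not called, at 198.9 and 190.0 CPM in TOs and 225 and 229 CPM in testes. It already made up 63.9% and 70.8% of Cox7b UMIs in TO spermatogonia and 73.1% and 80.3% in testis spermatogonia. The other germ isoforms had small shares in TOs, 9.85% and 8.82% for Cox6b2 against 51.2% and 38.4%, and 11.9% and 8.24% for Cox8c against 59.3% and 58.6%. After subtraction of the testis background none of the nuclear members was called in spermatogonia, and the testis shares fell to a mean of 23.0% for Cox6b2 and 30.1% for Cox8c.

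In leptotene/zygotene spermatocytes, the first meiotic cells, 13 of 83 nuclear members were called lower and 1 higher (16.2% and 4.79% of all genes). Cox8c stood at 109 and 98.9 CPM in TOs against 2829 and 1753 CPM in testes (−4.58 ± 0.37, adjusted p = 4.0e-06), Cox6b2 at 46.5 and 39.0 against 1083 and 733 CPM (−4.52 ± 0.34, adjusted p = 3.4e-06), and Cox7b2 at 218 and 178 against 673 and 645 CPM (−1.84 ± 0.26, adjusted p = 0.00018). Ndufaf3 stood at 33.2 and 23.7 against 274 and 188 CPM (−3.14 ± 0.30, adjusted p = 1.1e-05). The member called higher was Ndufa4, the somatic subunit, at 581 and 600 against 222 and 297 CPM (1.10 ± 0.25, adjusted p = 0.0053). Further members called lower were Ndufa4l2, Ndufv3, Ndufb2, Ndufc1, Cox7a2, Ndufs6, Ndufa7, Ndufa6 and Ndufb10, all but Ndufa4l2 by 1.17 to 1.66 on the log2 scale. The calls of the germ isoforms, Ndufaf3, Ndufa4l2 and Ndufb2 were kept without each library in turn, while Ndufa4 was lost without TO replicate 2 (1.03, adjusted p = 0.067) or TO replicate 1 (1.16, adjusted p = 0.035) and fell under a fold of 2 without testis replicate 1 (0.95). The other 7 members named here were each lost without TO replicate 2. The number called was 11 and 8 without TO replicate 1 and 2 and 23 and 31 without testis replicate 1 and 2.

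With the finer clustering, at the lower Piwil1 levels given above, 6 members were called, mt-Nd2 included. Cox8c (−3.78 ± 0.29, adjusted p = 2.2e-06), Cox6b2 (−4.23 ± 0.31, adjusted p = 1.6e-06), Ndufaf3 (−2.72 ± 0.31, adjusted p = 3.3e-05), Cox7b2 (−1.32 ± 0.27, adjusted p = 0.0034) and Cox7a2 remained lower and mt-Nd2 higher (1.37 ± 0.29, adjusted p = 0.0042). Ndufa4 then had a log2 fold of 0.86 (adjusted p = 0.025). With the testis background subtracted instead, Cox8c, Cox6b2, Ndufaf3, Cox7b2 and Ndufs6 were called lower. At the finer clustering Cox8c was at 77.3 and 56.7 CPM in TOs and 944 and 878 CPM in testes.

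The germ isoforms made up a smaller part of their subunit in TO leptotene/zygotene cells. The share of Cox6b2 was 27.5% (84 of 306 UMIs, exact 95% binomial interval 22.5% to 32.8%) and 28.1% in TOs against 93.1% and 90.6% in testes. That of Cox8c was 50.3% (196 of 390 UMIs, 45.2% to 55.3%) and 59.7% against 98.2% and 98.3%, and that of Cox7b2 86.0% and 91.8% against 99.1% and 99.3%. These intervals cover counting error only. At the finer clustering Cox6b2 stood at 31.5 and 17.8 CPM beside 103 and 90.1 CPM of Cox6b1 in TOs, and at 447 and 450 CPM beside 88.4 and 79.5 CPM in testes.

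**Figure D3:**
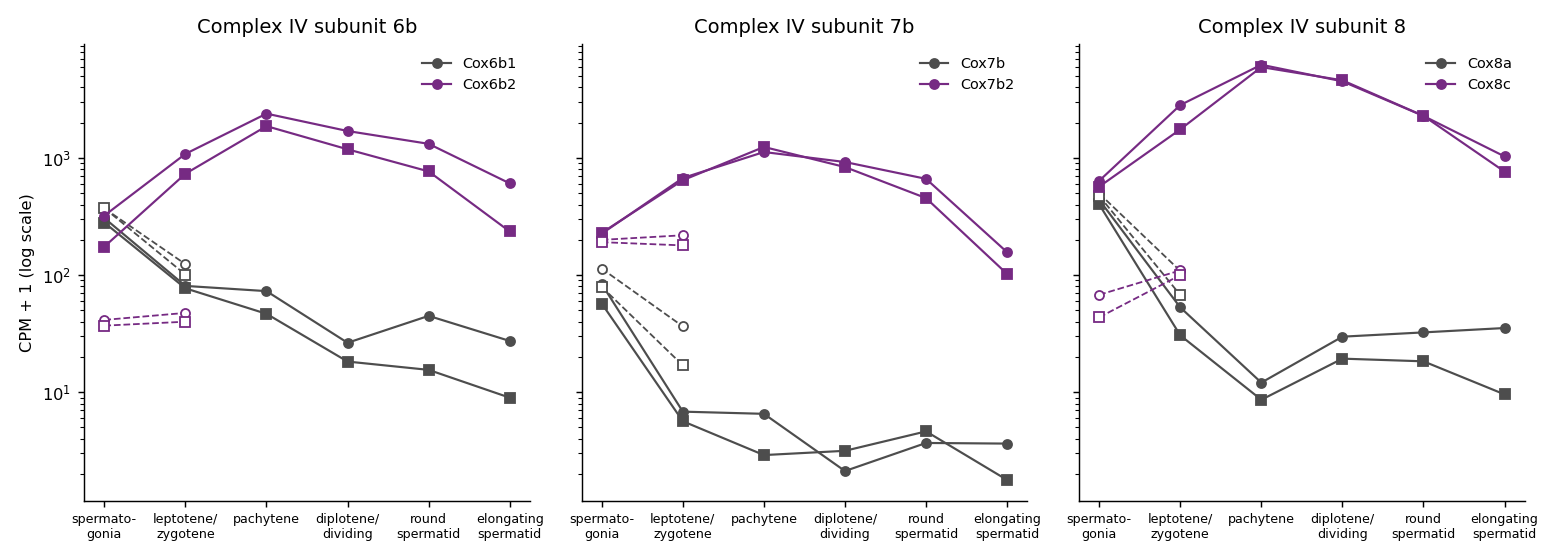
Levels (CPM + 1, log axis) of Cox6b2, Cox7b2 and Cox8c and of their somatic counterparts along the germ cell stages, with filled symbols and solid lines for testis, open symbols and dashed lines for TO, circles for replicate 1 and squares for replicate 2. Cox8c climbs from 637 and 568 CPM in testis spermatogonia to 6253 and 5972 CPM in pachytene cells while Cox8a drops from 438 and 400 to 11.1 and 7.61 CPM.

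Pachytene spermatocytes of TOs could be compared only when the upper limits of 5000 genes and 20000 UMIs per cell were lifted, a choice made after seeing the data, which left 30 and 41 TO cells and 319 and 454 testis cells. The TO cells then had 576 and 527 CPM of Piwil1 against 692 and 566 CPM. Cox8c reached 3889 and 4197 CPM in TOs against 5079 and 4988 CPM in testes (−0.40 ± 0.17, adjusted p = 0.14), Cox7b2 1021 and 973 against 1055 and 908 CPM (−0.06 ± 0.18, adjusted p = 0.85), and Cox6b2 1292 and 1150 against 1830 and 1446 CPM (−0.50 ± 0.19, adjusted p = 0.091). The germ isoforms made up 95.3% and 96.3% (Cox6b2), 98.5% and 99.8% (Cox7b2) and 98.8% and 99.3% (Cox8c) of their subunits in TOs, against 98.0% and 98.5%, 99.8% and 99.97%, and 99.6% and 99.7% in testes. The TO libraries lay below both testis libraries for Cox8c and Cox6b2 and overlapped with them for Cox7b2, and a p that misses the threshold does not show that the levels are alike.

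Of 80 nuclear members tested in these pachytene cells 1 was called lower and 0 higher (2.25% and 0.502% of all genes). By edgeR 16 of the 80 had an unadjusted p under 0.05, as did 3157 of 9761 genes. The lower member was Ndufa4l2, at 24.0 and 16.8 against 81.7 and 62.9 CPM (−1.94 ± 0.26, adjusted p = 0.0030). Ndufa4, which was left out of the test because it is over 5 times higher in other cells, stood at 139 and 123 against 48.9 and 53.3 CPM. Ndufaf3 stood at 436 and 379 against 497 and 532 CPM (adjusted p = 0.15). The share of mt UMIs was 2.45% and 3.04% against 1.55% and 1.51%, and the 13 mt members had log2 folds of 0.42 to 1.17, among which mt-Nd2 had 1.17 ± 0.24 (adjusted p = 0.014) and DESeq2 called 1. Leaving out TO replicate 1 or 2 gave 6 or 3 member calls, 4 or 2 of them mt members higher in TOs, and leaving out testis replicate 1 or 2 gave 7 and 7, of which 5 and 1 were mt members higher and 1 and 5 nuclear members lower in TOs. The nuclear sums were 29850 and 29317 against 35435 and 29457 CPM. The TO cells held 36182 and 43589 UMIs per cell and the testis cells 18847 and 22489.

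In the testes themselves the exchange of isoforms could be followed stage by stage, in 1 fit with the library as a block. From spermatogonia to leptotene/zygotene cells 5 of 86 nuclear members rose and 4 fell (5.88% and 7.80% of all genes). Ndufaf3 rose from 49.1 and 51.0 to 274 and 188 CPM (2.31 ± 0.35, adjusted p = 2.1e-05), beside Cox8c (2.03 ± 0.41), Cox6b2 (2.01 ± 0.37), Cox7b2 (1.66 ± 0.35) and Ndufa1 (1.76 ± 0.34). Cox7b fell from 82.6 and 56.1 to 5.82 and 4.65 CPM (−3.61 ± 0.52, adjusted p = 1.2e-05), Cox8a from 438 and 400 to 52.0 and 29.6 CPM (−3.30 ± 0.34, adjusted p = 5.7e-08) and Cox6b1 from 306 and 280 to 79.8 and 76.1 CPM (−1.77 ± 0.35, adjusted p = 0.00047). Atp5md, a small subunit of ATP synthase, fell by 1.13 on the log2 scale. At the finer clustering 1 nuclear member rose and 5 fell (308 and 600 of all 14904 genes). Those 3 somatic isoforms and Ndufa1 were again called, while Cox8c (0.59, adjusted p = 0.40), Cox6b2 (0.91, adjusted p = 0.14), Cox7b2 (0.89, adjusted p = 0.15) and Ndufaf3 (1.26, adjusted p = 0.028) were not, and these 4 were called higher in the next step, to pachytene cells (2.91, 2.39, 1.79 and 2.24).

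From leptotene/zygotene to pachytene cells the nuclear members as a group stood higher, with a median log2 fold of 0.85 against −0.23 for all genes, and 8 rose and 2 fell (1.75% and 7.05% of all genes). Their sum was 45607 and 38705 CPM in pachytene cells after 29026 and 22186 CPM. These pachytene cells numbered 53 and 161, at a median of 2325 and 2787 UMIs, with an estimated background of 70.4% and 17.3%. With the upper limits lifted the sums were 35435 and 29457 CPM in 319 and 454 pachytene cells after 21049 and 19544 CPM. Cox8c reached 6253 and 5972 CPM and was the most abundant nuclear member. Complex I subunits rose with it, with Ndufa6 going from 329 and 246 to 664 and 577 CPM (1.38 ± 0.33, adjusted p = 0.0044), Ndufb10 from 188 and 211 to 393 and 463 CPM (1.36 ± 0.33, adjusted p = 0.0043) and Ndufb4 from 205 and 148 to 398 and 331 CPM (1.34 ± 0.33, adjusted p = 0.0059). DESeq2 called 21 higher and 2 lower, the finer clustering 26 and 2, and lifting the upper limits 41 and 5. Over all genes the calls in these settings rose as well. DESeq2 called 607 higher and 1158 lower of 16070 genes. The finer clustering gave 984 and 1363 of 14904, and lifting the upper limits 3087 and 2409 of 17893.

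In diplotene or dividing cells 1 nuclear member was higher than in pachytene cells and 14 were lower (3.53% and 4.39% of all genes), with a median of −0.58 against 0.23 for all genes. All 3 genes for subunit c, which forms the rotor ring of ATP synthase, fell. Atp5g2 went from 133 and 168 to 22.4 and 22.1 CPM (−2.65 ± 0.40, adjusted p = 3.2e-05), Atp5g3 from 327 and 449 to 44.5 and 88.99 CPM (−2.48 ± 0.33, adjusted p = 7.9e-06) and Atp5g1 from 426 and 320 to 93.8 and 98.2 CPM (−1.83 ± 0.36, adjusted p = 0.00085). Ndufa4 fell from 77.5 and 124 to 10.8 and 10.8 CPM (−3.20 ± 0.44, adjusted p = 1.1e-05) while its paralogue Ndufa4l2 rose from 55.3 and 59.0 to 194 and 122 CPM (1.43 ± 0.37, adjusted p = 0.0080), so that Ndufa4l2 made up 41.7% and 32.3% of the pair in pachytene and 94.7% and 91.9% in diplotene cells. In the 319 and 454 testis pachytene cells seen with the upper limits lifted, Ndufa4l2 already exceeded Ndufa4. It stood there at 81.7 and 62.9 CPM and Ndufa4 at 48.9 and 53.3 CPM. With the upper limits lifted 0 members were called higher and 4 lower (1292 and 1449 of all 17893 genes).

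The few diplotene cells of TOs (15 and 19) are described without a test. They had 3728 and 4867 CPM of Cox8c against 4511 and 4604 CPM in testes, 989 and 1236 CPM of Cox6b2 against 1698 and 1185 CPM, and 736 and 1014 CPM of Cox7b2 against 923 and 835 CPM, so the libraries of the groups overlapped for Cox6b2, Cox7b2 and Cox8c. Ndufa4 stood at 253 and 174 CPM in TOs against 10.8 and 10.8 CPM, and Atp5g3 at 345 and 299 against 44.5 and 88.99 CPM. These TO cells had a median of 2053 and 4193 UMIs. The estimated background was 100% of their UMIs in both TO libraries, against 59.5% and 13.2% in testes, and its part in these levels was not tested. Atp5g2 stood at 23.0 and 86.9 CPM in these TO cells and Atp5g1 at 276 and 203 CPM.

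In round spermatids 4 nuclear members were higher than in diplotene cells and 5 lower (24.3% and 10.4% of all genes). Atp5mpl, a small membrane subunit of ATP synthase, rose from 75.9 and 40.5 to 413 and 221 CPM (2.63 ± 0.37, adjusted p = 1.3e-06), beside Ndufa4, Atp5g1 and Atp5md. Ndufc2 fell from 85.6 and 175 to 21.6 and 39.0 CPM (−1.90 ± 0.32, adjusted p = 1.8e-05), and the members that also fell included the complex III core protein Uqcrc2, Ndufaf3 and Atp5a1, the alpha subunit of ATP synthase. The round spermatids came from clusters of unlike depth. The cluster of high UMI number held 0.0987% and 0.130% mt UMIs and the clusters of low UMI number 1.05% and 2.34%.

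Elongating spermatids had 7 nuclear members higher than round spermatids and 1 lower (14.0% and 12.3% of all genes). Ndufa13, an accessory complex I subunit, rose from 123 and 97.3 to 573 and 389 CPM (3.15 ± 0.35, adjusted p = 4.1e-08) and Atp5mpl from 413 and 221 to 515 and 346 CPM (1.56 ± 0.35, adjusted p = 0.00077). For Atp5mpl, Atp5e, Ndufb7, Cox7a2l, Atp5g2 and Ndufb8 the fold lay on the scale of the normalization (TMM), and the CPM themselves were closer, as for Atp5g2 at 33.5 and 38.7 CPM in replicate 1. With the finer clustering 1 member was called, higher (1277 of all 14904 genes were higher and 1222 lower). The nuclear members summed to 15426 and 8748 CPM in elongating spermatids, the lowest of all stages.

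The mt share was lower in later testis stages than in spermatogonia, going from 3.57% and 4.08% in spermatogonia over 2.68% and 2.75%, 1.38% and 1.55%, 0.796% and 1.74% and 0.328% and 1.22% to 0.306% and 0.124% in elongating spermatids. Between neighbouring stages 0 of 13 mt members were called by edgeR or DESeq2 in any of the 5 contrasts. Unadjusted p-values of edgeR were under 0.05 for 0, 3, 3, 2 and 3 of them. Over all genes this held for 5422, 5221, 4768, 8360 and 7267 of 16070. Under other settings edgeR called some lower, namely 3 in pachytene cells and 2 in elongating spermatids with genes of any count, 1 in round spermatids at the finer clustering and 1 in elongating spermatids without the upper limits. At adjusted p < 0.05 with any fold it called 3 lower in diplotene cells and 3 lower in elongating spermatids. In testis replicate 2 the share was higher in diplotene than in pachytene cells. Testis replicate 2 lay above replicate 1 in round spermatids and below it in elongating spermatids, so the order of these last stages was not the same in size in both libraries.

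**Figure D4:**
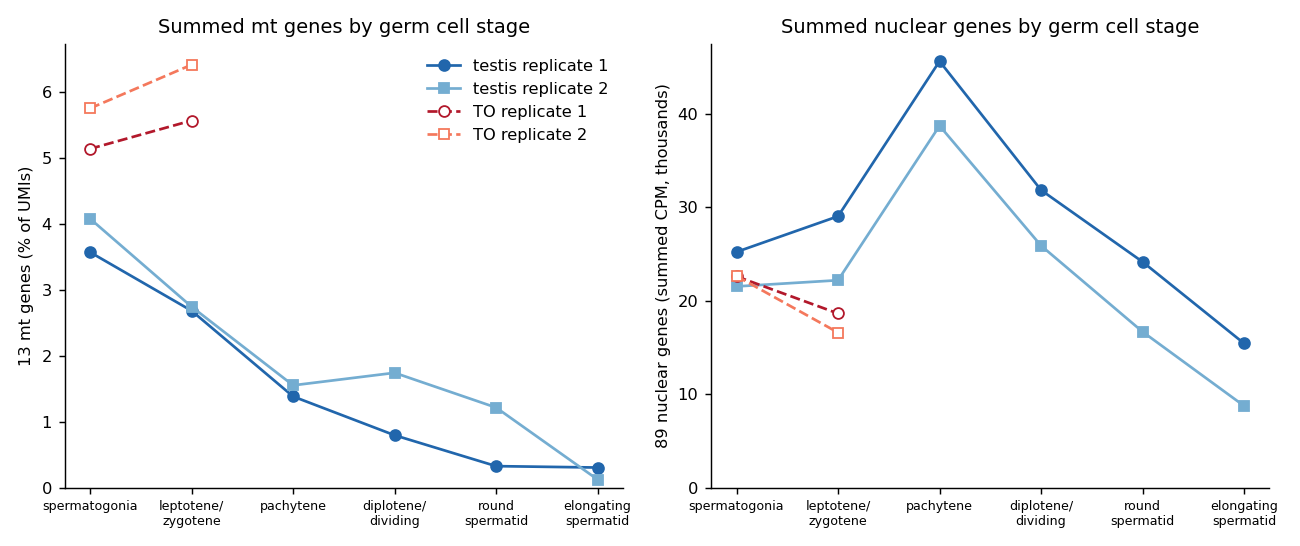
Sums of the mt members (percent of all UMIs) and nuclear members (CPM) along the germ cell stages, with filled symbols and solid lines for testis, open symbols and dashed lines for TO, circles for replicate 1 and squares for replicate 2. The nuclear sum peaks in testis pachytene cells at 45607 and 38705 CPM, where the mt share is 1.38% and 1.55%. These are 53 and 161 cells, and without the upper limits on genes and UMIs the pachytene sums were 35435 and 29457 CPM.

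TO germ cells took the same first meiotic step with a partly different outcome. From TO spermatogonia to TO leptotene/zygotene cells 2 of 85 nuclear members rose and 7 fell (13.7% and 16.6% of all genes). In this fit and in that of the difference below, the spread between libraries is estimated largely over all genes together. A small p there says little about the spread of a single gene. Ndufa1 rose from 97.6 and 96.6 to 393 and 325 CPM (2.10 ± 0.15, adjusted p = 1.4e-42) and Cox8c from 66.9 and 42.6 to 109 and 98.9 CPM (1.16 ± 0.18, adjusted p = 3.2e-10). At the finer clustering Cox8c went from 67.3 and 43.3 to 77.3 and 56.7 CPM and was not called (0.56, adjusted p = 0.0024), and 1 nuclear member, Ndufa1, was higher and 13 of 85 lower. Over all genes 1761 of 11950 were higher and 2114 lower there. Cox8a fell from 497 and 474 to 107 and 66.6 CPM (−2.30 ± 0.15, adjusted p = 6.4e-50), Cox7b from 112 and 78.2 to 35.5 and 15.9 CPM (−1.73 ± 0.20) and Cox6b1 from 370 and 372 to 123 and 100 CPM (−1.52 ± 0.15). The somatic isoforms thus fell in TOs as well. Ndufs8, Ndufaf4, Ndufa7 and Atp5c1 fell by 1.04 to 1.25 on the log2 scale. Of the mt members 0 were called by edgeR or DESeq2. By edgeR 13 of them had an unadjusted p under 0.05, as did 7572 of 12074 genes.

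The difference of the step between TOs and testes was tested as an interaction. It was called for 17 of 86 nuclear members, 16 lower and 1 higher in TOs (7.36% and 2.91% of all genes). Cox6b2 (−1.91 ± 0.22, adjusted p = 1.8e-09), Cox7b2 (−1.69 ± 0.19, adjusted p = 8.5e-10), Ndufaf3 (−1.70 ± 0.29) and Cox8c (−1.13 ± 0.21) stepped up less in TOs, and Cox7b stepped down less (1.59 ± 0.38, adjusted p = 0.0014). With the finer clustering the difference remained called for Cox6b2 only (−1.24 ± 0.29, adjusted p = 0.0046), that of Cox8c was −0.03 (adjusted p = 0.96), and without the upper limits 0 were called.

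The 3 X-linked members did not move together. In the testes Cox7b fell at the entry to meiosis, Ndufb11 fell from 32.4 and 57.5 CPM in leptotene/zygotene cells to 0 and 5.71 CPM in pachytene cells (−3.12 ± 0.77, adjusted p = 0.0053), and Ndufa1 first rose from 95.5 and 79.8 to 281 and 251 CPM and then fell to 122 and 59.0 CPM (−1.44 ± 0.37, adjusted p = 0.0076) and to 25.4 and 15.1 CPM in diplotene cells (−1.99 ± 0.41, adjusted p = 0.0011). In the TO pachytene cells seen without the upper limits Ndufb11 stood at 31.3 and 12.9 CPM against 3.16 and 1.37 CPM, Ndufa1 at 69.1 and 91.8 against 57.9 and 32.5 CPM (adjusted p = 0.075) and Cox7b at 15.7 and 1.68 against 2.33 and 0.294 CPM. The libraries did not overlap for Ndufb11 and Ndufa1 and overlapped for Cox7b.

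**Figure D5:**
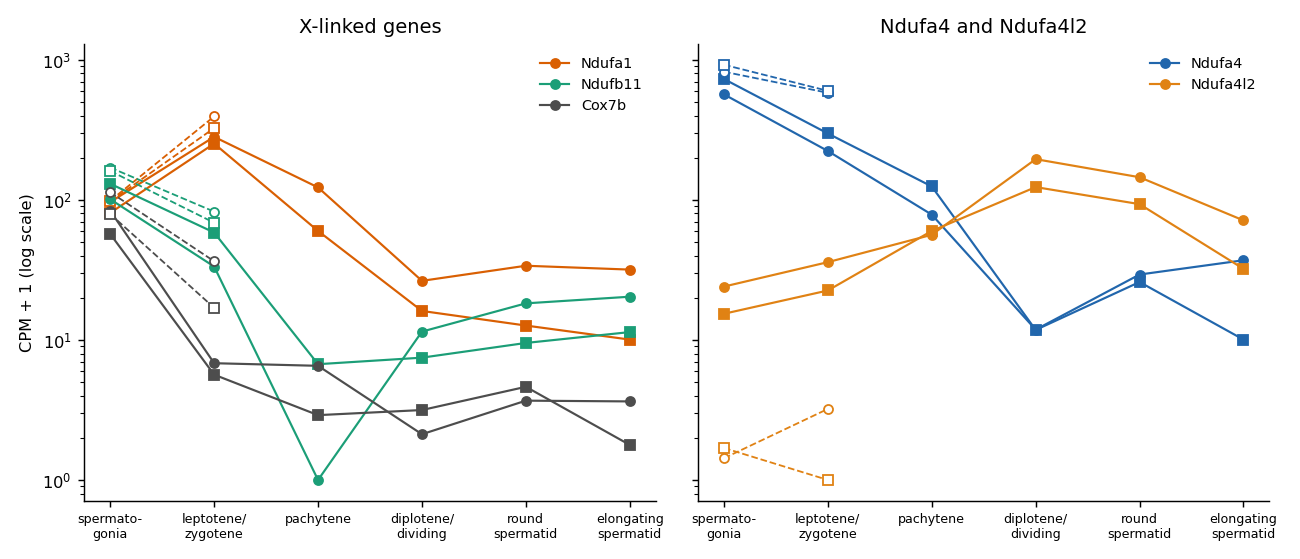
Levels (CPM + 1, log axis) of the X-linked members Ndufa1, Ndufb11 and Cox7b (left) and of Ndufa4 and Ndufa4l2 (right) along the germ cell stages, with filled symbols and solid lines for testis, open symbols and dashed lines for TO, circles for replicate 1 and squares for replicate 2. In the testes Ndufa4 drops from 566 and 729 CPM in spermatogonia to 10.8 CPM in diplotene cells, while Ndufa4l2 stands at 194 and 122 CPM there.

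Other genes of the pathway were taken from fixed lists. Complex II, the succinate dehydrogenase that is wholly nuclear encoded, had 0 of 4 genes called in any of the 8 types. Of the cytochrome c genes, the germ cell form Cyct was lower in TOs in 6 types and stood at 63.7 and 71.6 against 426 and 442 CPM in leptotene/zygotene cells (−2.77 ± 0.25, adjusted p = 7.4e-06), whereas the somatic form Cycs was higher there, at 176 and 187 against 54.0 and 104 CPM (1.12 ± 0.28, adjusted p = 0.0087). In spermatogonia Cyct was not called and stood at 138 and 164 against 80.7 and 121 CPM. Uqcc2, an assembly factor of complex III, was lower in 5 types, for example in myoid cells at 72.2 and 58.0 against 434 and 280 CPM (−2.51 ± 0.29, adjusted p = 9.0e-05). Most types with a lower Cyct were somatic, where the spermatid list summed to 20.02 to 101.2 CPM in TOs and 3120 to 8686 CPM in testes. The part of such transcripts in the Cyct and Uqcc2 calls was not tested. Of 13 genes of the TCA cycle 1 was called higher and 2 lower in leptotene/zygotene cells, and of 12 genes of mitochondrial transcription and DNA 1 was called lower. Over all genes 4.79% were called higher and 16.2% lower in this type. Elsewhere 1 TCA gene was higher in Sertoli cells, 2 were lower in myoid cells and 1 each in macrophages and stromal cells. For mitochondrial transcription and DNA 1 was higher in Sertoli cells and 1 lower in myoid cells.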

How the data were processed

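scRNA-seq was made from 2 TO and 2 testis libraries (10x Genomics), and the authors deposited UMI counts per gene and barcode from Cell Ranger 7.1.0, with mm10 named as the build in the submitters' processing notes. The annotation is not given in the sources used here. The deposited counts were unfiltered for doublets, depth or mt UMIs. Doublets were removed with Scrublet (0.8% per 1000 barcodes), and only those between 1000 and 5000 detected genes, with no more than 20000 UMIs and 10% mt UMIs, were kept, the limits of the study's methods. Cells were clustered with Scanpy 1.11.5 and leidenalg 0.10.2 on Harmony-corrected components (resolution 1.0) without the members. Clusters were named from fixed markers by a rule that was widened after the clusters had been seen. The members and lists were chosen with earlier results of these data known.

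UMIs were summed per library and type and tested with edgeR 4.0.16 (quasi-likelihood, TMM, filterByExpr, R 4.3.3), with Benjamini-Hochberg adjustment over all genes tested and calls at adjusted p < 0.01 and an absolute log2 fold change above 1. Genes at least 5 times higher in all other cells of either group were left out of a type. No p-value was computed for a sum over members. Types needed 20 cells in every library. DESeq2 1.42.0 and the other alternatives are given in the closing section. The testis background was subtracted from the testis libraries alone in an alternative chosen after seeing the data. The finer clustering used resolution 2. The steps were tested on simulated counts with 200 changed genes. Named were all mt members, the isoforms, the X-linked members, and per comparison the 5 called nuclear members of largest fold in each direction with at least 50 CPM in either group. Others named were chosen after their values were seen, among them all further called members in myoid and leptotene/zygotene cells and the genes Ndufa4l2, Ndufb11, Cyct, Cycs and Uqcc2. Each library's precision is limited by its number of cells per type. The values of 1 called member are not reported here.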

Additional observations from a re-analysis of the deposited data

Results flagged for a closer look

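The members below differed between TOs and testes in the step from spermatogonia to leptotene/zygotene cells, by a test of the difference itself (edgeR, log2 fold of the step in TOs minus that in testes). Among germ isoforms the differences were −1.91 for Cox6b2, −1.69 for Cox7b2 and −1.13 for Cox8c. Among complex I subunits they were −1.23 for Ndufb3, −1.05 for Ndufs3, −1.27 for Ndufb2, −1.11 for Ndufs6, −1.01 for Ndufb4, −1.26 for Ndufb10, −1.37 for Ndufv3 and −1.15 for Ndufa7, and among assembly factors −1.70 for Ndufaf3 and −1.08 for Ndufaf7. Atp5g3, a gene for subunit c of ATP synthase, differed by −1.05, Cox7a2 by −1.01 and the complex III subunit Uqcrq by −1.19. Cox7b, the X-linked somatic isoform, was the member with a positive difference, 1.59. The median over all genes was shifted by −0.11. DESeq2 called 8 members, the finer clustering called Cox6b2 alone (−1.24, adjusted p = 0.0046 by edgeR), and without the upper limits on genes and UMIs 0 were called by edgeR. The testis leptotene/zygotene cluster held cells with Piwil1 at 402 and 227 CPM beside these differences, and its part in them was not tested.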

How the results depend on the processing

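With 2 libraries a group, calls moved with many choices. Members called against the main counts (Sertoli 6, Leydig 0, macrophage 6, endothelial 8, myoid 14, stromal 6, spermatogonia 5, leptotene/zygotene 16) were, with no upper limits on genes and UMIs, Sertoli 3, macrophage 3, endothelial 5, myoid 1 and leptotene/zygotene 4. At adjusted p < 0.05 with any fold they were Sertoli 23, Leydig 2, macrophage 10, endothelial 21, myoid 33, stromal 18 and leptotene/zygotene 36. With the background subtracted in all libraries, which removes 54.9% to 100% of TO UMIs apart from endothelial TO replicate 2 (36.9%), they were Sertoli 1, leptotene/zygotene 1 and 0 in macrophage, endothelial, myoid, stromal and spermatogonia. With the testis background alone subtracted (chosen after seeing the data) they were endothelial 3, leptotene/zygotene 5 and 0 in Sertoli, macrophage, myoid, stromal and spermatogonia. Endothelial calls were 14 with a limit of 20% mt UMIs, 15 without one, 15 with genes of any count and 13 with cells thinned to 1500 UMIs, and myoid calls were 8 without an mt limit. Leydig calls were 1 with the 20% limit, without doublet removal, with any count or thinned, 3 by DESeq2 and 5 with no gene left out. Leptotene/zygotene calls were 3 without Harmony, 6 at resolution 2 and 27 with any count. Without Harmony macrophage, endothelial, myoid and stromal cells gave no value. The cause was not tested.

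The labels give both groups the replicate numbers 1 and 2 but do not say that a number marks a batch, and same-numbered libraries deviated together with correlations of 0.04 to 0.16. With the replicate block Leydig calls were 1, endothelial 17 and pachytene 2, and each of the 61 single calls was kept.

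Leaving out a library in turn gave 3 to 8 calls in Sertoli, 0 to 2 in Leydig, 3 to 8 in macrophage, 2 to 8 in endothelial, 6 to 20 in myoid, 5 to 10 in stromal, 5 to 7 in spermatogonia, 8 to 31 in leptotene/zygotene and 3 to 7 in pachytene cells. Those ranges assume that a lone library varies like the other group. For the mt share (log2 of TO over testis) they were −0.30 to −0.06 in Sertoli, −0.28 to 0.11 in Leydig, 0.24 to 0.77 in macrophage, 1.00 to 1.30 in endothelial, −0.09 to 0.15 in myoid, 0.51 to 0.70 in stromal, 0.42 to 0.61 in spermatogonia and 1.04 to 1.24 in leptotene/zygotene cells. For the nuclear sum they were −0.080 to 0.25, −0.45 to −0.23, −0.42 to −0.12, −0.22 to −0.074, −0.71 to −0.43, −0.50 to −0.12, −0.16 to 0.071 and −0.72 to −0.33 in the same order. The Sertoli nuclear sum turned negative without testis replicate 2, and the Leydig mt share turned positive without it.

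Pachytene calls without upper limits, 1 by edgeR, were 2 by DESeq2, 2 with any count, 3 with no gene left out, 13 at adjusted p < 0.05 and 0 with the testis background subtracted. Testis steps moved as follows: leptotene/zygotene against spermatogonia 9 calls, 15 by DESeq2, 16 at adjusted p < 0.05 and 4 with no upper limits. Pachytene had 10, 23 by DESeq2, 35 at adjusted p < 0.05, 28 at resolution 2 and 46 with no upper limits. In that step 281 of all 16070 genes were called higher in the main fit and 3087 of 17893 with no upper limits. Diplotene had 15, 27 at adjusted p < 0.05 and 4 with no upper limits. Elongating spermatids had 8, 16 by DESeq2 and with any count, 22 at adjusted p < 0.05, 1 at resolution 2 and 4 with no upper limits. The TO step had 9, 60 at adjusted p < 0.05 and 14 at resolution 2. Its difference from testis had 17, 8 by DESeq2, 7 with any count, 46 at adjusted p < 0.05, 1 at resolution 2 and 0 with no upper limits.

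The Sertoli mt share (−0.18) was 0.033 without the mt limit and −0.35 with the testis background subtracted, and the Sertoli nuclear sum (0.08) was −0.16 without the mt limit. The leptotene/zygotene mt share (1.14) was 0.91 with no upper limits, 0.88 without Harmony, 0.96 at resolution 2 and 1.01 thinned, and its nuclear sum (−0.54) was −0.22, −0.21 and −0.25 under no upper limits, without Harmony and at resolution 2. The myoid mt share (0.03) was −0.18 with no upper limits. The stromal mt share (0.60) was 0.50 at resolution 2, 0.72 thinned and 0.42 in cells of at least 3000 UMIs, and its nuclear sum (−0.32) was 0.12 with the testis background subtracted. With the background subtracted in all libraries mt-Nd2 was −1.51 in spermatogonia and −0.49 in leptotene/zygotene cells, and the testis shares of germ isoforms were 23.0%, 67.0% and 30.1% (Cox6b2, Cox7b2, Cox8c) in spermatogonia, 99.9% and 99.4% (Cox7b2, Cox8c) in leptotene/zygotene cells and 100% for all in round spermatids.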

Other observations

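mt-Atp8, the small mt subunit of ATP synthase that shares its transcript with mt-Atp6, differed between the 2 libraries of each group. In TO replicate 1 it stood at 184 CPM in Sertoli cells, 71.8 in myoid cells and 203 in leptotene/zygotene cells, and in TO replicate 2 at 55.3, 21.7 and 68.4 CPM. In testis replicate 1 it stood at 186, 57.9 and 78.2 CPM and in testis replicate 2 at 72.7, 19.2 and 29.6 CPM. Replicate 1 was above replicate 2 in both groups in each of these types, and the TO and testis libraries of the same number were close in Sertoli and myoid cells. mt-Atp8 was chosen after its values were seen.

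Atp5g3, a gene for subunit c of ATP synthase, stood in TO Leydig cells, the steroid-producing cells, at 1724 and 1429 CPM against 690 and 1063 CPM in testis Leydig cells, without a call (edgeR adjusted p = 0.22). In the other 7 types compared it stood at 142 to 418 CPM in TOs. Cox7a1 in testis Leydig cells stood at 177 and 25.04 CPM, and at 34.0 and 25.9 CPM in TO Leydig cells. Atp5g3 and Cox7a1 in Leydig cells were chosen after their values were seen.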
